A study of Mus musculus with 12 samples.

Results

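The genes described here are 10 acute-phase and alarmin genes: Saa1, Saa2 and Saa3, which encode serum amyloid A proteins, Lcn2 (lipocalin 2), S100a8 and S100a9 (the subunits of calprotectin), Hp (haptoglobin), Cp (ceruloplasmin), Ptx3 (pentraxin 3) and Steap4 (a metalloreductase). They were chosen by symbol and matched to 10 of the 57010 Ensembl gene IDs counted in the study. All 10 are annotated as protein-coding, on mouse chromosomes 7 (the Saa genes), 2 (Lcn2), 3 (S100a8, S100a9, Cp and Ptx3), 8 (Hp) and 5 (Steap4).

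The study sequenced poly(A)-selected RNA from 12 samples of primary mouse chondrocytes, the cells that make and maintain cartilage matrix, all of wild-type genotype. The treatment labels give 4 samples each as Control, as WT (transfected with the wild-type plasmid) and as SIRT5F101L (transfected with the plasmid for this mutant of SIRT5, a mitochondrial deacylase best known for taking malonyl and succinyl groups off lysines). The title places the study in chondrocyte metabolism and osteoarthritis. Strain and age of the mice, the promoter of the plasmids, and what the Control cells received are not given in the sources used here, so an effect of transfection or plasmid DNA and an effect of SIRT5 cannot be told apart in any difference from Control. Nothing says that the 4 samples of a group came from separate cultures or animals, so p-values measure only the spread between these samples, which may be technical.

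Acute-phase genes are named for proteins that the liver releases into blood in inflammation, but many are also transcribed outside the liver. Interleukin 1, tumour necrosis factor and interleukin 6 are their classical inducers, acting through NF-kB, C/EBP and STAT transcription factors. Alarmins such as calprotectin are proteins that signal danger to innate immune receptors once released, and lipocalin 2 withholds iron from bacteria by binding their siderophores. In joint tissue, serum amyloid A, lipocalin 2 and calprotectin are known as products that accumulate in inflamed or degenerating cartilage and synovium.

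Libraries held 15095357 to 24242139 counts. Sirt5 itself had 9 to 16 counts in the Control libraries, 1 to 9 in the WT libraries and 9 to 19 in the SIRT5F101L libraries. The species and codons of the plasmid insert are not stated, so this count does not check the labels, and WT and SIRT5F101L are used below as names of labelled groups. The library labelled SIRT5F101L replicate 1 differed from its group: on principal component 2 of log2 CPM (CPM being counts scaled to library size) it lay at 20.3, the other 3 lay at -23.5 to -17.0 and the WT libraries lay at -1.07 to 20.1. Over genes, its counts differed from those of WT libraries by a median chi-square of 2.61 to 6.27 times sampling noise, and from those of its own group by 8.20 to 8.92 times, which touches every comparison of SIRT5F101L with WT. The dependence of log2 CPM on log2 length of the transcript had a slope of -0.0592 in it and of 0.0823 to 0.106 in those 3, so the members' values are given with and without it. WT replicate 1 also lay apart from its group, at -1.07 on component 2 against 12.5 to 20.1 and with a slope of 0.0526 against -0.0370 to 0.00483, and without it the differences of Saa1 and Saa3 between the plasmid groups change sign (0.09 and -0.01). The chondrocyte markers were checked against the labelled cell type: 12 of 13 were detected in every group (Chad was listed at 0), with Col2a1 at 6719 CPM in Control. Their summed level was 9288 to 11645 CPM in Control, 2845 to 2959 in WT and 2315 to 2560 in SIRT5F101L, and fibroblast markers summed to 30672 to 36762, 11081 to 12753 and 11106 to 12474 CPM. Of the 12 chondrocyte markers tested, 10 fell in each plasmid group, while 2 rose in WT (Acan by 0.47 and Hapln1 by 0.25) and 1 in SIRT5F101L (Hapln1 by 0.18). Of 7 fibroblast markers tested, 5 fell and 2 (Pdgfra and Prg4) rose in each, and 1 of the 5 (Dpt) passed the filter only through Control.

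The upstream sequences of 6 genes are shown because they differ in how far their transcripts moved and because the Saa1 and Saa2 windows are near copies. RefSeq (GRCm38.p6) had entries for 9 of the 10 members, all but Hp. Each sequence is the 250 bases before the gene's start on the gene's strand, read 5′ to 3′, and capitals mark a match to a motif searched on both strands. The motifs were TTGCNNAA for C/EBP factors, TTCNNNGAA for STAT factors, TGANTCA for AP-1, and the decamer consensus of NF-kB. The windows lie at chr7:46715677-46715926, minus strand (Saa3), chr2:32387740-32387989, minus strand (Lcn2), chr3:90668821-90669070, plus strand (S100a8), chr7:46742981-46743230, minus strand (Saa1), chr7:46751583-46751832, plus strand (Saa2) and chr5:7960222-7960471, plus strand (Steap4).
Saa3: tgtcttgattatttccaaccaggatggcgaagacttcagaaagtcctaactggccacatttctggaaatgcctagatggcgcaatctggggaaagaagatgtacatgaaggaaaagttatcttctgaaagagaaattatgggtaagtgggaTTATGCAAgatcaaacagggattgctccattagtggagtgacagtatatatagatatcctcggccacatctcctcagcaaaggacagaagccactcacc
Lcn2: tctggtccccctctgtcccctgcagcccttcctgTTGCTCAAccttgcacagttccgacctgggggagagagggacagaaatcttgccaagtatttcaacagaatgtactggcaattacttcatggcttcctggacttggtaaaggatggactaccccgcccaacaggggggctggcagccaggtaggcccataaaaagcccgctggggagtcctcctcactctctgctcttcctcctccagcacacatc
S100a8: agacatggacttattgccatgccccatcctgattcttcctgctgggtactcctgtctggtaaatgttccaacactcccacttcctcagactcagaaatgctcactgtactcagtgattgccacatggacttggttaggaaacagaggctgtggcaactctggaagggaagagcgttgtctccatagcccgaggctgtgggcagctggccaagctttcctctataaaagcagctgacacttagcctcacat
Saa1: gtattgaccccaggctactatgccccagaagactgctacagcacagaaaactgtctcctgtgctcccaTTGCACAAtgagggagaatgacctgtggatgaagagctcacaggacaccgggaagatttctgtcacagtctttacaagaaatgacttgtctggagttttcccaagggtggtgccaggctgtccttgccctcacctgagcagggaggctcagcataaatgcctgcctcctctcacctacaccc
Saa2: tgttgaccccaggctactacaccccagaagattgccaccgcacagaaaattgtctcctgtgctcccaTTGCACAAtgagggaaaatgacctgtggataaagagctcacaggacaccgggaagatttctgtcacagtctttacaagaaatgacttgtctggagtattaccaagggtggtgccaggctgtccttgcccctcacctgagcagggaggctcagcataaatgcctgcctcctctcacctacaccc
Steap4: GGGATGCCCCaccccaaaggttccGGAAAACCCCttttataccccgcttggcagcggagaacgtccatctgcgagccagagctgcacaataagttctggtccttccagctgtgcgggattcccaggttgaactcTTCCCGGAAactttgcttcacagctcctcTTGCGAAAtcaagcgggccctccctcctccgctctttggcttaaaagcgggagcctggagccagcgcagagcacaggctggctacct

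The C/EBP letters stood in 8 of the 10 windows of these 9 members, against 9.56% of all 32851 RefSeq promoters. The S100a8 window and 1 of the 2 windows of Cp were without them. In Saa3 the match was TTATGCAA at -99 to -92, counted back from the gene's start, and in Lcn2 it was TTGCTCAA at -216 to -209. Saa1 and Saa2 held the same TTGCACAA at -182 to -175 and -183 to -176, and their windows were 94.8% identical over 251 aligned columns, while Saa1 and Saa3 were 52.5% identical over 276. Steap4 held 2 NF-kB matches (at -250 to -241 and -226 to -217), a STAT match (-116 to -108) and a C/EBP match (-87 to -80), and no other member's window had the NF-kB or STAT letters. Over all promoters NF-kB letters occurred in 3.90%, STAT letters in 7.02% and AP-1 letters in 6.75%. A match is a run of letters and not evidence of binding.

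The members with counts to test were higher in both plasmid groups than in Control. Of the 10 genes, 7 passed the expression filter. Saa1 and S100a8 passed it only through the plasmid groups, since 0 and 1 of their 4 Control libraries reached its minimum of 0.531 CPM, so they had to differ and their calls are a description. The other 5 (Saa3, Lcn2, Hp, Cp and Steap4) passed in Control too, and all 5 were called higher in WT against Control and in SIRT5F101L against Control (edgeR quasi-likelihood test, Benjamini-Hochberg adjusted p under 0.05 over 14253 genes). Among all genes tested, 28.7% were called higher and 28.1% lower in WT, and 30.0% higher and 30.7% lower in SIRT5F101L. The median log2 fold change of these 5 genes was 2.50 in WT and 2.79 in SIRT5F101L, and that of all genes tested was -0.01 and -0.02. Both comparisons use the same 4 Control libraries.

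Together the members made up 0.00298% to 0.00348% of a Control library's counts, 0.0718% to 0.0881% of a WT library's and 0.0791% to 0.112% of a SIRT5F101L library's. None of the 5 had a plasmid library at or below its highest Control library. Over all genes, 26.9% were higher without overlap in WT and 25.7% in SIRT5F101L. In bulk RNA, a change in the number of expressing cells and a change in RNA per cell cannot be told apart.

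**Figure D1:**
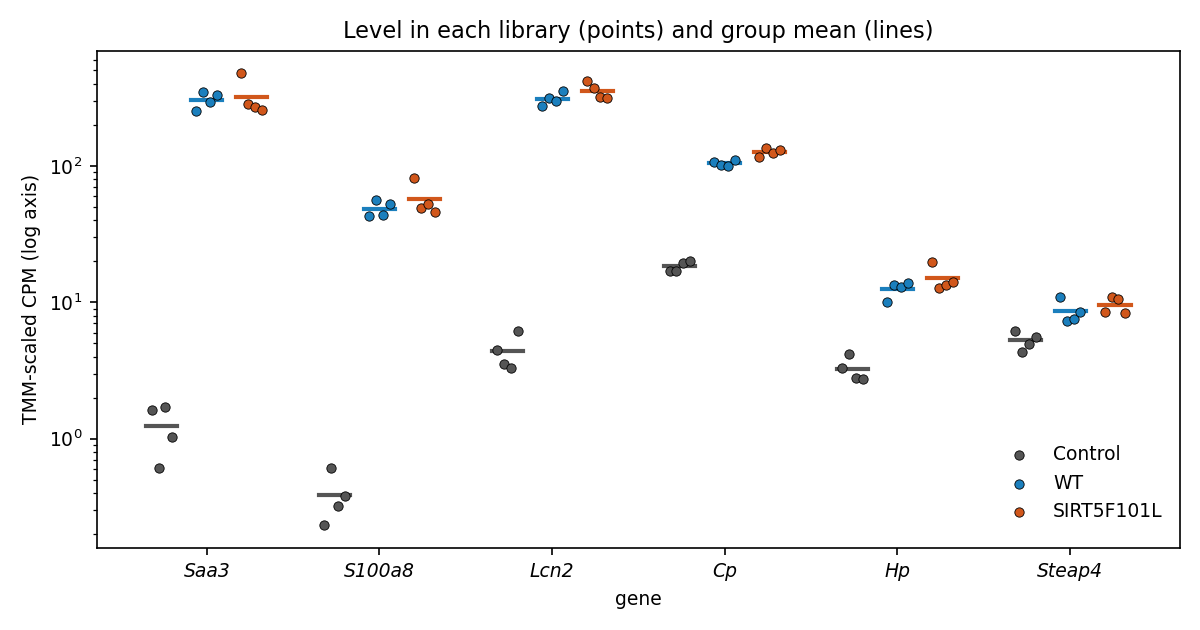
TMM-scaled CPM (log axis) of 6 members in each of the 12 libraries, with points for libraries and lines for the means of the 4 libraries of a group. Control libraries lie below all plasmid libraries for each gene, by the widest margin for Saa3 (means of 1.24, 306 and 321 CPM) and the narrowest for Steap4 (5.25, 8.57 and 9.56 CPM).

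Saa3, the serum amyloid A gene that mice transcribe mainly outside the liver, had the largest increase among the members with counts in every Control library. Its counts were 28, 12, 32 and 19 in the Control libraries, 5111, 5417, 5064 and 6449 in the WT libraries, and 8905, 4350, 6770 and 4493 in the SIRT5F101L libraries. On the TMM scale these were 1.63, 0.608, 1.70 and 1.04 CPM, then 252, 347, 293 and 332 CPM, then 476, 283, 272 and 255 CPM. The Control libraries were all near 1 CPM and all plasmid libraries were at 252 CPM or more, with a single high value in SIRT5F101L replicate 1. Against Control this was a log2 difference of 7.95 (SE 0.25, edgeR adjusted p = 6.10e-16) in WT and 8.02 (SE 0.25, edgeR adjusted p = 4.81e-16) in SIRT5F101L. Its fold interval in WT (166 to 367) overlapped that of S100a8 (82.0 to 181), and Saa1, with no Control counts, has only a lower bound and cannot be ranked against either.

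Saa1 and Saa2, the liver-type serum amyloid A genes, were present at trace level and their counts are uncertain, since the longest transcripts of the pair are 96.7% identical over 2447 bases. Saa1 had 0 counts in all 4 Control libraries, 28, 13, 19 and 19 in WT and 32, 15, 16 and 15 in SIRT5F101L. Against a floor of 3 counts per Control library (0.163 CPM), its mean of 1.07 ± 0.232 CPM (SD, n = 4) in WT was at least 6.60-fold higher, and that of 1.04 ± 0.465 CPM in SIRT5F101L at least 6.43-fold higher. Saa2 had 0, 0, 0 and 1 count in Control, 9, 13, 3 and 9 in WT and 7, 5, 1 and 5 in SIRT5F101L, and did not pass the filter. From that single Control count, the ratio was 34.7 (95% exact interval 5.81 to 1409) in WT and 17.4 (2.74 to 724) in SIRT5F101L, for counting error only. Saa3 thus held nearly all serum amyloid A counts in the plasmid libraries.

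Lcn2, the siderophore-binding lipocalin, reached levels close to those of Saa3. It had 77, 70, 62 and 112 counts in Control, 5557, 4883, 5163 and 6927 in WT, and 7869, 5688, 7936 and 5543 in SIRT5F101L. The means were 4.36 ± 1.28, 310 ± 34.5 and 356 ± 50.1 CPM (SD, n = 4). The groups given a plasmid overlapped each other and lay far above Control. Against Control this was a log2 difference of 6.16 (SE 0.15, edgeR adjusted p = 1.16e-17) in WT and 6.35 (SE 0.15, edgeR adjusted p = 6.67e-18) in SIRT5F101L.

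S100a8, the smaller calprotectin subunit and a ligand of TLR4 and RAGE, had 4, 12, 6 and 7 counts in Control, 863, 875, 752 and 1016 in WT, and 1513, 760, 1319 and 814 in SIRT5F101L. Its means were 0.386 ± 0.161, 48.6 ± 6.65 and 57.3 ± 15.9 CPM (SD, n = 4). Control libraries sat near the floor, and the SIRT5F101L value of 80.9 CPM in replicate 1 stood above 46.1 to 52.9 CPM in the other 3. The fitted log2 difference from Control was 6.93 in WT and 7.17 in SIRT5F101L, given as a description since the gene passed the filter only through the plasmid groups.

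S100a9, the partner subunit, and Ptx3, a soluble pattern recognition protein that local cells release in inflammation, were listed at 0 in all 12 libraries. Also at 0 throughout were all 4050 IDs on X, Y, mitochondrial or unplaced sequence in GENCODE M21, and 3916 of 20716 autosomal protein-coding IDs. A listed 0 was therefore not read as a level, and the balance of the calprotectin subunits could not be measured.

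Hp, whose product binds free haemoglobin, had 57, 82, 52 and 50 counts in Control, 203, 208, 225 and 269 in WT, and 367, 196, 332 and 250 in SIRT5F101L. The means were 3.24 ± 0.665, 12.5 ± 1.72 and 14.96 ± 3.16 CPM (SD, n = 4), and the lowest plasmid library lay well above the highest Control library (4.16 CPM). It rose by a log2 difference of 1.94 (SE 0.17, edgeR adjusted p = 5.87e-09) in WT, and in SIRT5F101L the level was 4.60-fold that of Control (95% interval 3.53 to 5.99, edgeR adjusted p = 6.88e-10).

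Cp, the copper-carrying ferroxidase that oxidises exported iron, was the member with the highest Control count. It had 294, 332, 362 and 369 counts in Control, 2157, 1568, 1717 and 2136 in WT, and 2178, 2090, 3096 and 2300 in SIRT5F101L. The scaled values were 17.1, 16.8, 19.3 and 20.2 CPM, then 106, 101, 99.2 and 110 CPM, then 116, 136, 124 and 130 CPM. The 3 groups did not overlap, and SIRT5F101L was highest. Against Control its log2 difference was 2.50 (SE 0.08, edgeR adjusted p = 2.57e-16) in WT and 2.79 (SE 0.08, edgeR adjusted p = 4.49e-17) in SIRT5F101L. Exons of Hps3 on the opposite strand overlap 1.13% of its exonic length, and the strand setting of the counting is not stated.

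Steap4, which reduces iron and copper at membranes and is induced by inflammatory cytokines, changed least. Its counts were 106, 85, 93 and 102 in Control, 221, 114, 130 and 166 in WT, and 158, 167, 263 and 148 in SIRT5F101L. The means were 5.25 ± 0.796, 8.57 ± 1.65 and 9.56 ± 1.32 CPM (SD, n = 4), and the lowest plasmid library (7.31 CPM) was above the highest Control library (6.16 CPM). It rose by a log2 difference of 0.72 (SE 0.16, edgeR adjusted p = 0.000585) in WT and 0.87 (SE 0.15, edgeR adjusted p = 6.71e-05) in SIRT5F101L.

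**Figure D2:**
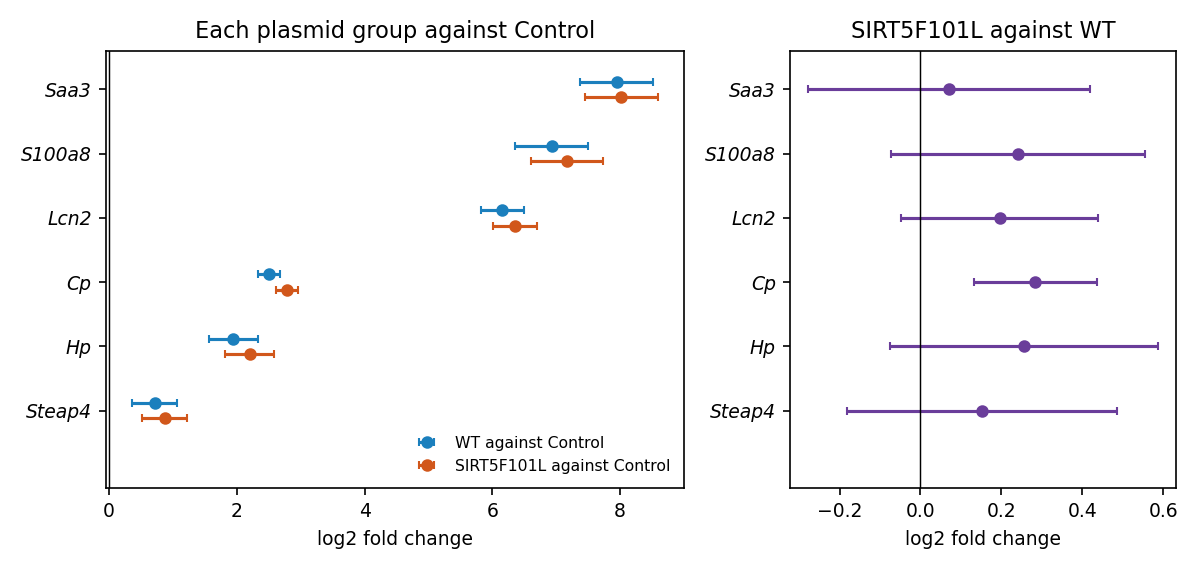
Log2 fold change of 6 members with 95% intervals (bars, on 9 residual degrees of freedom), for WT and SIRT5F101L against Control on the left and SIRT5F101L against WT on the right, on a different scale. The intervals on the left lie above 0 (that of S100a8 is a description, as it passed the filter only through the plasmid groups), and on the right the interval of Cp (0.13 to 0.44) is the one that does not reach 0.

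The size of the increase spanned a wide range, from 1.64-fold (95% interval 1.29 to 2.10) for Steap4 to 247-fold for Saa3 in WT. Per kilobase of the principal transcript, the mean level in WT ran from Saa3 (551 CPM per kb) through Lcn2 (339), S100a8 (100), Cp (25.8), Hp (9.33), Steap4 (2.72) and Saa1 (1.76) to Saa2 (0.734), and the library ranges of neighbours in this order did not overlap. In SIRT5F101L the order was the same (579, 389, 118, 31.4, 11.1, 3.03, 1.71 and 0.392 CPM per kb), but the ranges of Saa3 and Lcn2 overlapped, as did those of Steap4 and Saa1. The places of Saa1 and Saa2 rest on uncertain counts in both groups, since their transcripts are near copies. In Control, by the same measure, Lcn2 (4.77 ± 1.39 CPM per kb, SD, n = 4) and Cp (4.55 ± 0.407) led and did not differ beyond their spread. Hp (2.41 ± 0.494), Saa3 (2.24 ± 0.933) and Steap4 (1.66 ± 0.252) followed within overlapping spreads, and S100a8 was at 0.794 ± 0.331. The order at the top depends on the length used, since the merged exon length put Lcn2 at 118 and Saa3 at 117 CPM per kb in WT. In Control it put Hp (2.02 CPM per kb) and Cp (1.92) first, and Steap4 and Lcn2 at 1.66 each.

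Between the plasmid groups edgeR called no member, 1 of the 7 (Cp) had an unadjusted p under 0.05, and DESeq2 called 1 (Cp), among 43 genes in all. Among all genes tested 0.0281% were called higher in SIRT5F101L than in WT and 0.0140% lower, which is 4 and 2 genes (edgeR, with 1701 at an unadjusted p under 0.05). Without SIRT5F101L replicate 1, 2213 genes were called in place of 6. The median log2 fold change of the 7 members was 0.20 against 0.00 over all genes, and 6 of the 7 values were above 0. Without SIRT5F101L replicate 1 the median was 0.10 and 5 values were above 0, with S100a8 at 0.03, Lcn2 at 0.11, Hp at 0.10, Steap4 at 0.21 and Saa1 at -0.41. The differences were 0.07 (95% interval -0.28 to 0.42) for Saa3, 0.20 (-0.05 to 0.44) for Lcn2, 0.24 (-0.07 to 0.55) for S100a8, 0.26 (-0.07 to 0.59) for Hp and 0.15 (-0.18 to 0.49) for Steap4. For Saa1, at few counts, the difference was -0.06 with the widest interval (-0.89 to 0.77). The edgeR adjusted p ran from 0.464 to 0.963 over these genes and Saa1. The intervals leave room for moderate differences either way for Saa1, Saa3 and Steap4, so the groups are not shown to be alike.

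Cp came closest to a difference between the plasmids. Its SIRT5F101L libraries (116 to 136 CPM) lay above its WT libraries (99.2 to 110 CPM), as did those of 1.99% of all genes. The log2 difference was 0.28 (SE 0.07, edgeR adjusted p = 0.180), an increase of 1.22-fold (95% interval 1.10 to 1.35). The call turned with the processing, as Cp was called by DESeq2 (adjusted p = 0.0230), by edgeR without the expression filter (adjusted p = 0.0198) and by edgeR without SIRT5F101L replicate 1 (0.32, adjusted p = 0.000699). Over all genes, those 3 settings called 43, 354 and 2213 genes, against 6 in the main fit. Over all 16 alternatives the log2 value stayed between 0.25 and 0.32, with adjusted p from 0.000699 to 0.668.

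In SIRT5F101L replicate 1 the short members were the highest of their group and the long Cp was the lowest. Its CPM over the mean of replicates 2 to 4 was 2.08 for Saa1 (principal transcript of 609 bases, 15 to 32 counts), 1.77 for Saa3 (555 bases), 1.63 for S100a8 (486 bases), 1.26 for Lcn2 (915 bases) and 1.46 for Hp (1345 bases). It was 0.895 for Cp (4029 bases) and 0.851 for Steap4 (3155 bases), whose value of 8.45 CPM lay within the range of the other 3. Without that library the SIRT5F101L mean of Saa3 was 270 ± 14.1 CPM in place of 321 ± 104, and its log2 difference from WT was -0.18 (edgeR adjusted p = 0.149). The means without it were 334 ± 30.9 CPM for Lcn2, 49.5 ± 3.38 for S100a8, 13.4 ± 0.722 for Hp, 130.1 ± 5.82 for Cp and 9.93 ± 1.34 for Steap4 (SD, n = 3). With each library's length trend as an offset, the Saa3 difference was 0.16. The part of transcript length in the values of this library was not tested further.

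**Figure D3:**
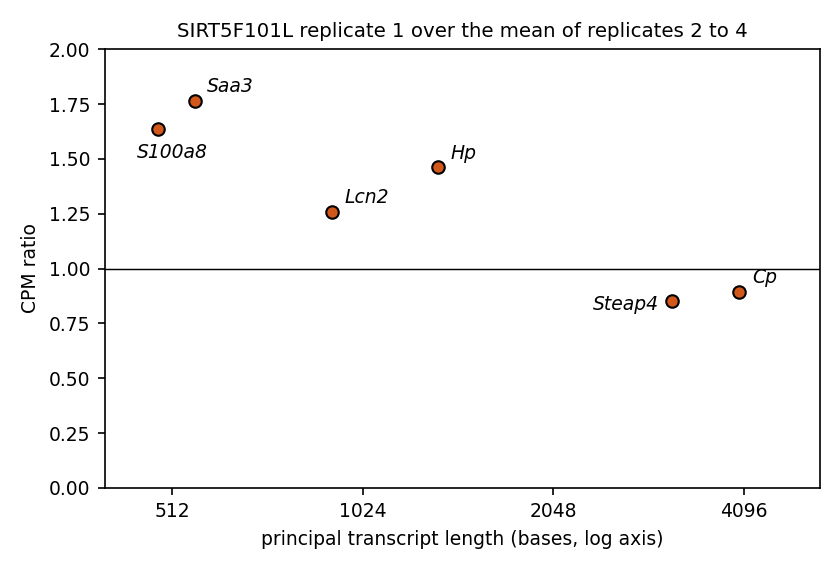
CPM of SIRT5F101L replicate 1 divided by the mean of replicates 2 to 4 (vertical axis) against principal transcript length in bases (log axis) for 6 members, 1 point per gene. The 4 shortest of these lie above the line of equal level, up to 1.77 for Saa3, and Cp (0.895) and Steap4 (0.851) lie below it.

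Related genes are set against a background in which 56.8% of all genes tested were called in either direction in WT and 60.7% in SIRT5F101L. Among genes known to induce the acute-phase response, 13 of 18 listed cytokine and receptor genes passed the filter, and 6 were higher, 4 lower and 3 not called in each plasmid group against Control. The median log2 fold change was 0.11 in WT and 0.08 in SIRT5F101L. Il6, the chief inducer of liver acute-phase genes, rose from 1.67 CPM to 75.5 in WT and 94.2 in SIRT5F101L, a log2 change of 5.50 (SE 0.11) and 5.82 (SE 0.11). Lif (3.95 and 4.23) and Il11 (2.70 and 2.66), which signal through the same gp130 receptor subunit, rose as well. The interleukin 1 receptor partner Il1rap was at 0.557 CPM in Control, 1.35 in WT and 1.94 in SIRT5F101L, and passed the filter only through the plasmid groups. The 4 lower genes were the gp130 gene itself, Il6st (-0.72 and -0.59), and the receptor genes Il11ra1 (-1.55 and -1.54), Lifr (-1.13 and -0.83) and Il1r1 (-0.65 and -0.43), named after their values were seen. Il1a, Il1b, Tnf and Osm did not pass the filter. Tnf had 17, 16, 19 and 6 counts in Control, 0, 1, 5 and 0 in WT, and 1, 2, 5 and 0 in SIRT5F101L. Il1b had 0, 2, 7 and 1 counts in Control, 0 in every WT library, and 0, 0, 4 and 0 in SIRT5F101L. These counts are a description.

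Transcription factors and feedback regulators changed in every case. Of 15 genes, 13 were higher and 2 lower in each plasmid group, with a median log2 fold change of 0.94 in WT and 1.06 in SIRT5F101L. Nfkbiz, the inducible NF-kB cofactor needed for Lcn2 induction in other cells, rose by 2.65 (SE 0.10) in WT and 2.81 (SE 0.10) in SIRT5F101L. Tnfaip3, a feedback inhibitor of NF-kB, rose by 1.82 and 1.85, and the NF-kB cofactor Bcl3 by 1.63 in each group. The C/EBP factors moved in different directions: Cebpa fell by 1.57 and fell by 1.62 on the log2 scale, while Cebpd (1.34 and 1.23) and Cebpb (0.61 and 0.57), which inflammatory signals induce, rose. Cebpd and Cebpb were named after their values were seen.

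Receptors of the members' products were mixed, with 5 of 12 tested genes higher, 3 lower and 4 not called in each group (medians 0.12 and 0.16). The lipopolysaccharide co-receptor Cd14 rose by 2.05 in WT and 2.27 in SIRT5F101L, and the formyl peptide receptor Fpr1 (0.200 CPM in Control, 0.610 in WT and 0.873 in SIRT5F101L) passed the filter only through the plasmid groups. Fpr2, the other formyl peptide receptor of the list, was listed at 0 in all 12 libraries. Lrp2, the endocytic receptor of lipocalin 2, was at 0.726 CPM in Control, 0.193 in WT and 0.511 in SIRT5F101L (-1.88 and -0.49). Ager, encoding RAGE, was at 0.815, 0.425 and 0.283 CPM (-0.92 and -1.49). Lrp2 is counted among the 3 lower in WT and Ager among the 3 lower in SIRT5F101L. Both passed the filter through libraries of Control and the other plasmid group, so these calls are a description. Neither gene was called between the plasmid groups. Slc22a17, another lipocalin 2 receptor, at 33.8 CPM in Control, fell by 0.78 and fell by 0.95. Tlr4, which S100A8 binds, rose by 1.10 and 1.19. Slc22a17 and Tlr4 were named after their values were seen.

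Other acute-phase proteins were mostly out of reach. Of 31 listed genes 13 passed the filter and 6 were listed at 0 in every library. Against Control, 6 were higher, 2 lower and 5 not called in each plasmid group, with a median of 0.48 in WT and 0.47 in SIRT5F101L. Complement C3 rose by 4.45 (SE 0.10) and 4.62 (SE 0.10), the protease inhibitor Serpina3n by 1.43 and 1.49, and metallothionein Mt1 by 1.35 and 1.45. Complement C4b fell by 1.65 and fell by 1.56 on the log2 scale.

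Other S100 genes and alarmins moved in both directions. Of 20 tested, 9 were higher, 3 lower and 8 not called in WT, and 6 were higher, 3 lower and 11 not called in SIRT5F101L, with medians of 0.17 and 0.05. These are 60% and 45% of the tested genes, near or below the share called over all genes. S100a7a rose by 2.18 in WT and 2.03 in SIRT5F101L. Camp, the cathelicidin precursor (0.204 CPM in Control, 2.01 in WT and 1.80 in SIRT5F101L), S100a5 (0.353, 1.85 and 2.24 CPM) and S100a2 (0.261, 0.705 and 0.498 CPM) passed the filter only through the plasmid groups, so these values are a description. Such genes are 3 of the 9 counted as higher in WT and 2 of the 6 in SIRT5F101L.

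Genes that handle iron and copper, the metals of Cp, Steap4 and lipocalin 2 biology, changed in both directions. Of 22 tested, 11 were higher, 4 lower and 7 not called in WT, and 12, 5 and 5 in SIRT5F101L, with medians of 0.21 and 0.28. The metal importer Slc39a8 rose by 2.96 and 3.04, and the copper exporter Atp7b, at 0.566 CPM in Control, 4.39 in WT and 5.55 in SIRT5F101L, passed the filter only through the plasmid groups. The iron exporter ferroportin, Slc40a1, whose export Cp assists, fell by 2.53 and fell by 2.22, and the ferric reductase Cybrd1 fell by 1.85 and fell by 2.09. The Steap4 paralog Steap2 rose by 0.86 and 1.03 and Steap3 fell by 1.33 and fell by 1.45; both were named after their values were seen. Between the plasmid groups edgeR called no gene of these 6 lists, with 1 to 5 tested genes of each list at an unadjusted p under 0.05. DESeq2 called Il6 and the ferritin light chain gene Ftl1, among 43 genes in all.

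**Figure D4:**
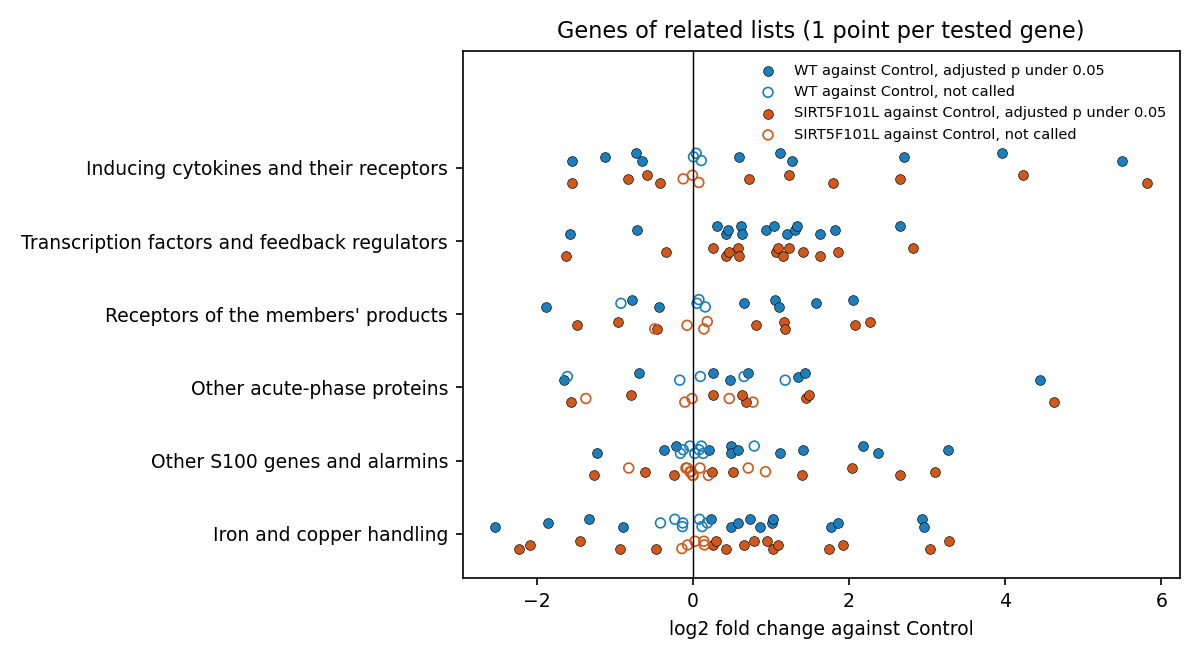
Log2 fold change against Control (horizontal axis) of the tested genes of 6 related lists, 1 point per gene, in WT (blue) and SIRT5F101L (orange), filled where the adjusted p was under 0.05. Transcription factors and feedback regulators are filled throughout (13 higher and 2 lower in each group), and Il6 (5.50 and 5.82) and C3 (4.45 and 4.62) lie farthest right.

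By likeness of profile (root mean square difference of centred log2 CPM over 12 libraries, among 9754 genes with at least 5 CPM on average), Saa3 was nearest to Ccl5 (0.603), Mmp3 (0.684) and Cxcl3 (0.719), and S100a8 to the same 3 genes (0.311, 0.312 and 0.350). Lcn2 was nearest to Mmp3 (0.256), Slco4a1 (0.266) and Ptgs2 (0.328). Genes near Hp included Nqo1 (0.197) and Cd14 (0.200), and Cp was nearest to Itga2 (0.106), Grem1 (0.107) and Mmp13 (0.131). Steap4 was nearest to Cpd (0.128), Nmt2 (0.132) and Ascc3 (0.133). For Saa1, whose profile is compressed by the prior count of 2, they were Prss35 (0.309), Glp2r (0.309) and Fam110c (0.311). Among members the closest pair was Hp and Cp (0.405), then Lcn2 and S100a8 (0.431). These distances largely measure the size of the difference from Control, which all libraries share.

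Markers of other cells that transcribe these genes were measured beside them. Of 12 neutrophil markers, the cells in which S100a8 is most abundant, the summed level was 0.407 to 1.28 CPM in Control, 0.924 to 2.11 in WT and 1.49 to 2.09 in SIRT5F101L, which is 7 to 52 counts per library. Ly6g alone passed the filter, through the plasmid libraries only, with 0, 0, 2 and 0 counts in Control and 6 to 17 in the plasmid libraries, while Elane was listed at 0 in 10 of 12 libraries. Of 12 macrophage markers, Itgam was listed at 0 and 11 were tested, of which Cd14 rose and 10 fell in WT and 9 in SIRT5F101L, with 1 of those (Ptprc) short of the filter's minimum in part of the libraries of both plasmid groups. Their summed level was 206 to 241, 141 to 161 and 149 to 193 CPM. Hepatocyte markers summed to at most 0.520 CPM in any library, with 0 to 9 counts. Endothelial markers summed to 3.50 to 4.53, 2.60 to 3.75 and 2.93 to 3.91 CPM, and osteoblast markers to 14.8 to 22.3, 1.16 to 2.05 and 1.13 to 1.88 CPM. The part of other cell types in the members' levels was not tested further.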

How the data were processed

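Poly(A)-selected RNA of 12 samples was sequenced as paired-end reads, per the labels' protocols. The authors deposited whole-number counts per Ensembl gene ID. The submitters' processing notes name FastQC 0.11.9, HISAT2 2.2.1, HTSeq 2.0.2, DESeq2 1.38.3 and GRCm39 (mm39), with no role given. The annotation release and strand setting are not given in the sources used here. A table of Ensembl names gave symbols for 52029 of 57010 IDs.

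Counts were tested with edgeR 4.0.16 (R 4.3.3): TMM scaling, filterByExpr by group, a quasi-likelihood fit of 12 libraries with 1 mean per group, and Benjamini-Hochberg adjustment over 14253 genes at 0.05, in 2-sided tests. The SE of a log2 fold change is its absolute value over the square root of F. CPM are TMM-scaled means ± SD over 4 libraries. A floor of 3 counts was 0.124 to 0.199 CPM, and such floors and intervals cover counting error only, since the libraries had no molecular identifiers. All pairs of libraries within a group differed by more than sampling noise (median chi-square 2.55 to 8.92 times its noise value). Lengths and exon overlaps came from GENCODE M21, whose build (GRCm38) is not the authors'; near copies came from BLAST 2.17.0, and window identity from Biopython 1.88. The pipeline was tested on simulated counts.

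The members and gene lists were chosen with earlier results of these data known. The named genes are the members, the 3 nearest profiles of each tested member, up to 4 called genes of each list with the largest change, and Sirt5, with exceptions stated where they occur. One gene that this rule names is not reported here. Alternatives were RLE and upper-quartile scaling, DESeq2 1.42.0, 2 other filters, a robust prior, fits of 8 libraries, and leaving out each library. After the data were seen, a length trend as an offset (loess, span 0.5) and merged exon lengths were added.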

Additional observations from a re-analysis of the deposited data

Results flagged for a closer look

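In 23 sets of 4 libraries (a member in a group), a single value stood far from the other 3 in 2 sets, where chance would give about 1.15. Saa3 was at 476 CPM in SIRT5F101L replicate 1 and at 255 to 283 CPM in the other 3 libraries of that group. Saa2 was at 0.0546 CPM in Control replicate 4, which is 1 count, and at 0 in the other Control libraries, so this value is within the floor of 3 counts.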

How the results depend on the processing

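Against Control, the 5 members that passed the filter in Control too stayed higher and called in each of the 16 alternatives run for them. Between the plasmid groups the count of members called was 0, and 1 (Cp) with DESeq2, without the expression filter, and without SIRT5F101L replicate 1, so leaving out 1 library gave 0 to 1. The sign of the Saa1 difference, -0.06, turned without WT replicate 1 (0.09), SIRT5F101L replicate 3 (0.14) or SIRT5F101L replicate 4 (0.02), with a range of -0.41 to 0.14, and with the length trend as an offset (0.013). That of Saa3, 0.07, turned without WT replicate 1 (-0.01) and without SIRT5F101L replicate 1 (-0.18), with a range of -0.18 to 0.17. None of these values was called, and the cause was not tested. Over all genes, 6 were called between the plasmid groups, 43 by DESeq2, 354 without the filter, 24 with the length offset, 4 with a mean of 1 CPM, 2 with a robust prior and 2 in a fit of the 8 libraries. Without SIRT5F101L replicate 1 it was 2213, and without any other plasmid library 0 (945 to 2191 at an unadjusted p under 0.05). The S100a8 to S100a9 ratio was not run, since S100a9 was listed at 0. Without the filter, Saa2 had a log2 fold change of 4.57 (edgeR adjusted p = 0.000110) in WT and 3.65 (0.00495) in SIRT5F101L. No paired analysis was possible because the replicate numbers only follow the order of deposition. Depth limits Saa1, Saa2 and S100a8 in Control, at 0 to 12 counts per library.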
